A study of Homo sapiens with 4 samples.

Results

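The cells described here are the irradiated U-2 OS cells with the most FGF2 transcript. U-2 OS cells are a human bone tumour (osteosarcoma) line that carries wild-type p53. In each irradiated (IR) library, FGF2 counts were scaled to 10000 gene counts per cell and the cells were selected on this measured value: the top 15% were taken as FGF2-high, which gave 37 cells in each of the 2 experiments, 74 of 495 IR cells and of 1220 cells in the whole series. Cells with no FGF2 count (FGF2-zero, 122 and 133 cells) served for comparison, and the other cells with an FGF2 count (88 and 78) are called FGF2-intermediate. IR cells had received 4 Gy of ionizing radiation and untreated (UT) cells none. The labels give both 48 h and 24 h between irradiation and sorting, and the study's methods give 48 h. Each experiment gave 1 library per group, made by SORT-seq, in which single cells are sorted into wells of a plate and the 3′ end of each polyadenylated RNA receives a barcode for its cell and a random tag for the molecule. No genetic change or added agent other than the radiation is named for these samples, and all of them come from 1 cell line.

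FGF2 (fibroblast growth factor 2, ENSG00000138685, chr4:122826682-122898236 on GRCh38, plus strand) is a growth factor that leaves cells without a classical signal peptide, binds heparan sulfate proteoglycans and activates FGF receptor tyrosine kinases, which signal through ERK and switch on their own feedback inhibitors. It is long known from the matrix of mesenchymal and bone-forming tissues. The genes that moved most in the cells selected here belong to another system. Interferon-stimulated genes encode antiviral proteins and are switched on when the RNA sensors RIG-I and MDA5, or cGAS and STING, detect nucleic acid, or when secreted interferon reaches its receptor. Interferon regulatory factors bind them at an interferon-stimulated response element, of which GAAANNGAAA and its reverse complement form the core.

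The following windows show that core in capitals, on either strand, in the promoters of 5 interferon-stimulated genes that were higher in FGF2-high cells. They are 5′ to 3′ on the gene's own strand, from RefSeq on GRCh38.p14. In ISG15 and IFIT1 the copies overlap or lie close together.
IFIT1, chr10:89392487-89392549, plus strand: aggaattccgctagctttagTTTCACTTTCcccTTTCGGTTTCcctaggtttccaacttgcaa
IFIT3, chr10:89327821-89327904, plus strand: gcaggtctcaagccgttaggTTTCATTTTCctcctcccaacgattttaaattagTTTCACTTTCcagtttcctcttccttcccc
ISG15, chr1:1013364-1013419, plus strand: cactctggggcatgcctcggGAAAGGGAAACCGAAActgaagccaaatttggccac
DDX60, chr4:168318776-168318860, minus strand: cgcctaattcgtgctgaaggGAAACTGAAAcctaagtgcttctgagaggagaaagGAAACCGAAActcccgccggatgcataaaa
IFI44, chr1:78649751-78649800, plus strand: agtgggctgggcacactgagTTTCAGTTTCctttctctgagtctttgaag

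Of 27305 promoter windows of 300 bases, 3.65% held these letters on either strand. Among genes higher in FGF2-high IR cells they stood in 11 of 46 matched promoters, and in 10 of the 13 that belong to the interferon list. Outside that list they stood in 1 of 33 promoters of higher genes (3.03%), against 229 of 8401 (2.73%) for all genes tested. Among genes lower in FGF2-high cells they stood in 0 of 36. The FGF2 promoter window and that of RSAD2 did not contain these letters.

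FGF2 itself chose the cells, so its level is given as a description. The 37 FGF2-high cells of each library held 69.6% and 77.3% of all FGF2 counts of IR experiments 1 and 2. Their median was 5 and 8.01 FGF2 counts per cell, and the highest cells held 38.2 and 44.2. In experiment 1 the last cell inside the top 15% had 1.17 FGF2 counts per 10000 and the first outside had 1.12, and in experiment 2 these were 1.15 and 1.13. The threshold therefore fell within a continuous range, and 3 and 2 of the selected cells held a single FGF2 count. At the other end 10 and 15 cells held 10 or more. Over all cells, FGF2 stood at 77.0 and 93.4 CPM (counts scaled to the library total) in IR against 31.5 and 36.6 CPM in UT, and 50.6% and 46.4% of IR cells against 31.8% and 38.4% of UT cells had an FGF2 count. UT cells rarely held 10 or more: in the top 15% of each UT library the median was 2 counts and 1 cell held 10 or more. IR cells held more counts in all, with median totals of 20180.9 and 22035.5 against 15662.5 and 17627.4 in UT. The shares of cells and the counts per cell given here are not corrected for this depth. NUDT6, which overlaps the 3′ end of FGF2 on the other strand (chr4:122888697-122922968), had 12 and 3 counts in FGF2-high cells and 5 and 9 in matched FGF2-zero cells, too few to be tested. How strand was handled in counting is not given in the sources used here.

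To ask what else distinguished these cells, each FGF2-high cell was matched within its library to an FGF2-zero cell of nearly equal total counts. This paired 37 and 35 FGF2-high cells with 37 and 35 FGF2-zero cells. Median total counts were 20812 and 26958 in FGF2-high cells and 20569 and 27086 in FGF2-zero cells, and the spike-in share was 0.200% and 0.897% against 0.190% and 0.897%. Counts were summed over the cells of each class and library, FGF2 was left out, and the sums were compared with the library as a block (edgeR quasi-likelihood test, Benjamini-Hochberg adjusted p under 0.05). Of 10275 genes, 69 were higher in FGF2-high cells (0.672%) and 43 were lower (0.418%). The filter on low counts admits a gene through either class, and 1018 of these genes missed it in FGF2-zero cells. Of those 1018, 14 were called higher and 1 lower, while of the 9257 that reached it there 55 were higher and 42 lower. Of the 112 called genes 111 had the same direction in both experiments, which a call from 2 libraries nearly requires. The design has 2 libraries per class and 1 residual degree of freedom. With DESeq2 12 of the 112 genes kept their call, and without the library term 11 did.

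Antiviral genes led the increase. Of the 40 interferon-stimulated genes listed, 28 were abundant enough to be tested, 16 rose and 0 fell, with 0 lower at an unadjusted p under 0.05 as well. DESeq2 called 8 of the 28 higher. The filter on low counts admits a gene through either class: 9 of the 28 missed it in FGF2-zero cells, and 6 of the 16 higher genes (HERC6, IFIH1, IFIT2, ISG20, OASL and RSAD2) are among those 9, so they could hardly have been called lower. Of the 19 that reached it in FGF2-zero cells of both experiments, 10 rose and 0 fell, with a median log2 fold change of 0.55. The list medians over tested genes carry this selection. The median log2 fold change of the 28 was 1.05 (0.90 in experiment 1 and 1.21 in experiment 2), beside -0.00 over all genes tested. All members summed to 4176 and 4129 CPM in FGF2-high cells against 1598 and 1222 CPM in FGF2-zero cells. The FGF2-zero cells matched to FGF2-intermediate cells summed to 1566 and 1505 CPM, so the level in experiment 2 depends on which FGF2-zero cells were drawn. The sums of the classes did not overlap, which says little by itself with only 2 sums per class.

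The genes of the IFIT cluster on chromosome 10, whose proteins bind viral RNA that lacks host cap marks, gave some of the largest differences. IFIT3 (ENSG00000119917, chr10:89327307-89377473) had 511 and 671 CPM in FGF2-high cells against 28.9 and 16.95 CPM in FGF2-zero cells, a log2 fold change of 4.71 ± 0.19 (SE, n = 2 libraries, edgeR adjusted p = 3.7e-30). IFIT1 (chr10:89392546-89406487) had 332 and 353 CPM against 18.8 and 11.7 CPM (4.51 ± 0.22 on the log2 scale, edgeR adjusted p = 3.7e-30). IFIT2 (chr10:89283694-89309271) had 336 and 246 CPM in FGF2-high cells and 31.4 and 3.18 CPM in FGF2-zero cells (4.17 ± 0.36 on the log2 scale, edgeR adjusted p = 0.000277). For all 3 the lowest FGF2-high value lay above the highest FGF2-zero value. With 2 sums per class this separation says little by itself, and how many of all genes show it was not counted.

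OASL, which enhances signalling by RIG-I, had 435 and 360 CPM in FGF2-high cells against 31.4 and 8.48 CPM in FGF2-zero cells. ISG15, a ubiquitin-like protein that is conjugated to other proteins, had 215 and 232 CPM against 17.6 and 20.1 CPM. Their log2 fold changes were 4.38 ± 0.22 and 3.55 ± 0.23 (edgeR adjusted p = 1.46e-23 and 1.11e-22). RSAD2 (viperin, which makes a chain-terminating nucleotide) gave 76 and 65 counts in FGF2-high cells and 1 and 0 counts in FGF2-zero cells. The ratio of these counts is 139 (24.5 to 5521, 95% exact interval, counting error only). The interval does not cover the choice of matched FGF2-zero cells, which is described below for experiment 2. The RNA sensors and helicases moved in the same direction. DDX58, which encodes RIG-I, had 61.2 and 117 CPM in FGF2-high cells and 25.1 and 18.0 CPM in FGF2-zero cells, and lost its call without IR experiment 2 (edgeR adjusted p = 0.115). IFIH1, which encodes MDA5, had 46.2 and 40.05 CPM against 11.3 and 4.24 CPM. DDX60, an RNA helicase, had 140 and 99.6 CPM against 20.1 and 12.7 CPM. HERC6, IFI44, ISG20, SAMD9, PARP14, IFITM2 and IFITM3 completed the 16, with log2 fold changes between 0.52 and 2.61.

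**Figure D1:**
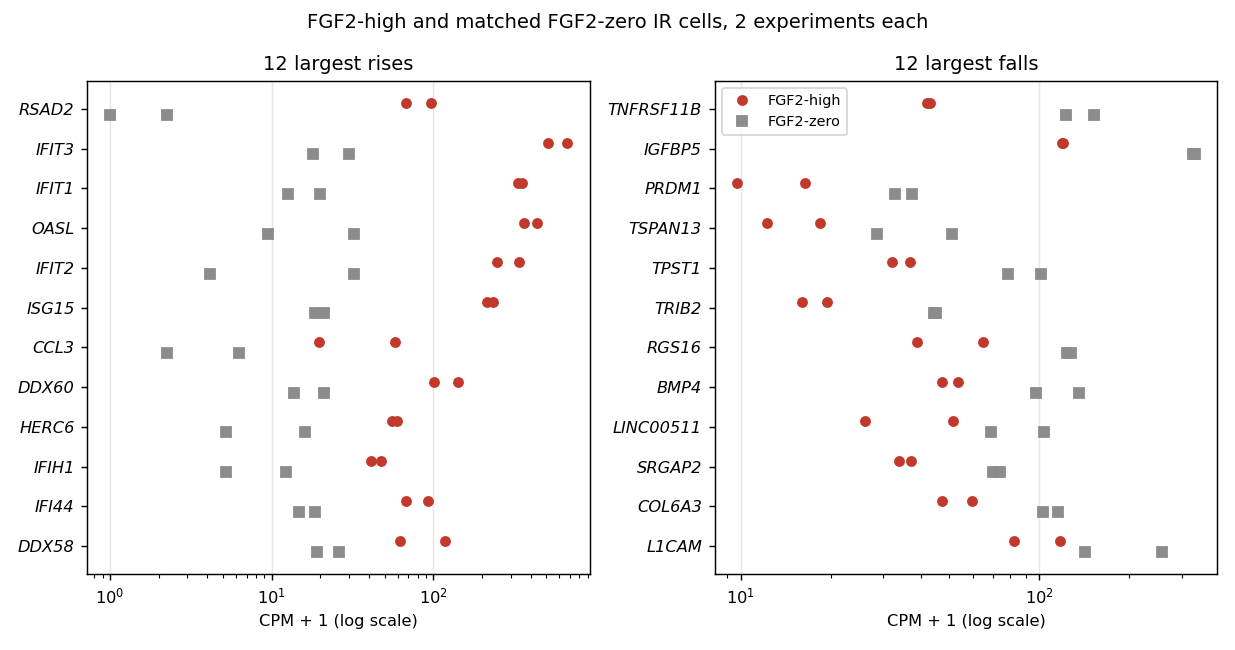
Level of the 12 genes with the largest rise (left) and the 12 with the largest fall (right) in FGF2-high cells (red circles) and matched FGF2-zero cells (grey squares) of the 2 IR experiments, as CPM + 1 on a log scale. Each symbol is the sum over 35 or 37 cells of 1 library. For each gene shown the symbols of the classes do not overlap. The genes were chosen as the largest called changes with the same direction in both experiments, so their separation is not a further result. How many of all genes have such separate symbols was not counted.

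Other members of the list did not pass the test. IFI6 had a log2 fold change of -0.13 ± 0.31 (edgeR adjusted p = 0.968). MX1, a standard marker of the response to interferon, had 1 and 3 counts in FGF2-high cells and 0 and 1 in FGF2-zero cells. No count of the interferon genes IFNB1 or IFNL1 was found in the matched cells of either class, where 3 counts would correspond to 3.03 to 3.64 CPM. IFI6, MX1, IFNB1 and IFNL1 were picked for mention after their values had been seen. So were genes outside the list that rose: TMEM173, which encodes STING, had 32.5 and 70.8 CPM in FGF2-high cells against 20.1 and 12.7 CPM in FGF2-zero cells (edgeR adjusted p = 0.00153), and ZC3HAV1, the zinc finger antiviral protein, had 258 and 263 CPM against 117 and 124 CPM (edgeR adjusted p = 2.3e-07). B2M, the light chain of MHC class I, had 1093 and 1279 CPM against 862 and 851 CPM (edgeR adjusted p = 0.000119).

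The sums hid a large spread between cells. For IFIT3, 18 of 37 and 19 of 35 FGF2-high cells had a count, against 6 of 37 and 12 of 35 FGF2-zero cells. The single highest FGF2-high cell supplied 21.01% and 17.3% of the IFIT3 counts. Without the highest cell of each class IFIT3 stood at 414 and 559 CPM in FGF2-high cells against 12.4 and 13.8 CPM in FGF2-zero cells. RSAD2 was more concentrated, with counts in 6 of 37 and 9 of 35 FGF2-high cells, and 3 cells held 96.1% and 73.8% of them. Summed levels of these genes are therefore set by a subset of the FGF2-high cells.

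To count that subset, a cell was called interferon-high where its counts of the 40 listed genes per 10000 exceeded the 95th percentile of the FGF2-zero cells of its library. By this cutoff 15 of 37 FGF2-high cells were interferon-high in each experiment (40.5%, 95% exact interval 24.8 to 57.9%), against 5 of 37 and 0 of 35 matched FGF2-zero cells, where 0 of 35 allows a share of up to 10.0%. Seen from the other side, 60.0% and 48.4% of all interferon-high IR cells were FGF2-high. Among UT cells, with the cutoff set in the same way, 5 of 53 and 5 of 55 FGF2-high cells were interferon-high, against 4 of 53 and 3 of 55 matched FGF2-zero cells. Free of any cutoff, the median interferon level was 18.3 and 20.3 per 10000 in FGF2-high IR cells and 14.6 and 12.03 in matched FGF2-zero IR cells.

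**Figure D2:**
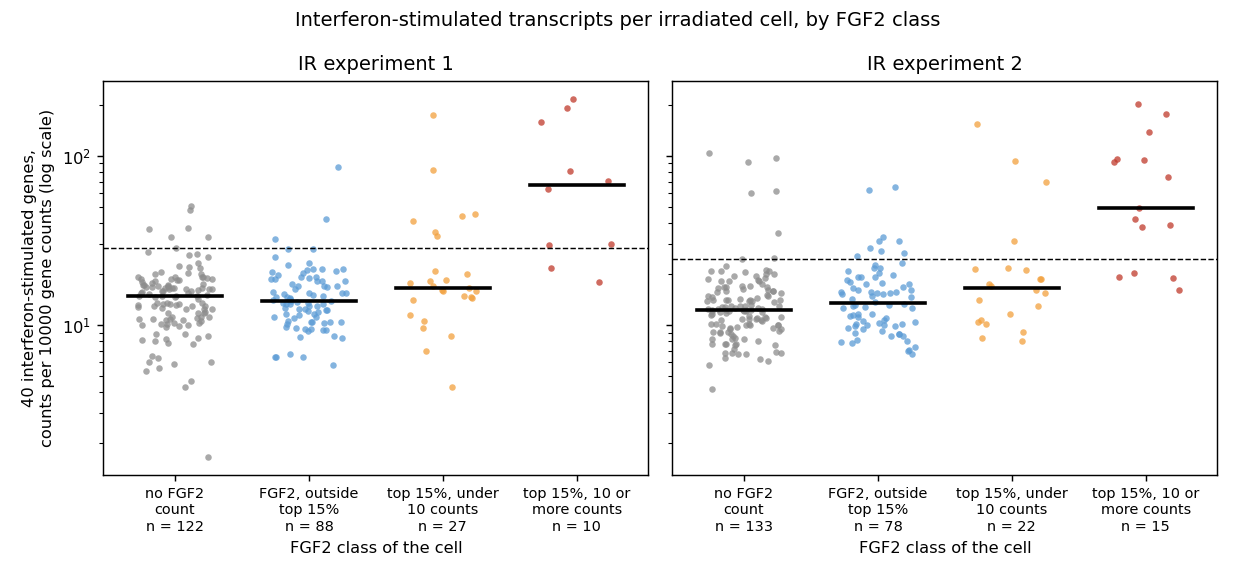
Summed counts of the 40 interferon-stimulated genes per 10000 gene counts (log scale) in every IR cell of experiment 1 (left) and experiment 2 (right), by FGF2 class from no count to 10 or more counts. Each dot is 1 cell, bars are medians and the dashed line is the 95th percentile of the cells with no FGF2 count. Of the cells with 10 or more FGF2 counts, 8 of 10 and 11 of 15 lie above the line.

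The interferon level was not spread evenly over FGF2 levels. With no FGF2 count, 7 of 122 and 7 of 133 cells lay above the cutoff, which the cutoff itself fixes. In FGF2-intermediate cells it was 3 of 88 and 9 of 78 cells. It was 7 of 27 and 4 of 22 in FGF2-high cells with under 10 FGF2 counts, and 8 of 10 and 11 of 15 in those with 10 or more. The cut at 10 counts was added after the data had been seen. OASL stood at 23.7, 25.6, 174 and 1008 CPM over these 4 classes in experiment 1 and at 28.6, 54.1, 191 and 493 CPM in experiment 2. ISG15 stood at 17.6, 28.9, 128 and 401 CPM in experiment 1 and at 39.2, 41.9, 117 and 331 CPM in experiment 2. The cells with 10 or more FGF2 counts also held more counts in all, with a median total of 23105 and 29129 against 18182 and 18181 in cells with no FGF2 count, so these unmatched classes differ in depth.

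Comparisons with the members split at 10 FGF2 counts were also added after the data had been seen. When only the 10 and 15 members with 10 or more FGF2 counts were compared with matched FGF2-zero cells, 16 of 25 tested interferon genes rose. Their median log2 fold change was 2.28. With the members under 10 counts 5 of 24 rose, with a median of 0.67. Of all genes, 95 of 7535 were called with the former members and 12 of 9050 with the latter. Here too the filter admits a gene through either class. How many interferon genes passed it through FGF2-high cells only was not counted, so the medians of 2.28 and 0.67 carry this selection and cannot be set against each other. FGF2-intermediate cells were compared with their own matched FGF2-zero cells. Of 12280 genes 10 were higher (0.0814%) and 24 were lower (0.195%), and of 28 interferon genes 0 were called in either direction by edgeR, with 3 higher and 4 lower at an unadjusted p under 0.05 and a median log2 fold change of -0.01. DESeq2 called 1 gene of all in that comparison. The difference between the intermediate and high classes was not tested, and they share part of their FGF2-zero cells.

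**Figure D3:**
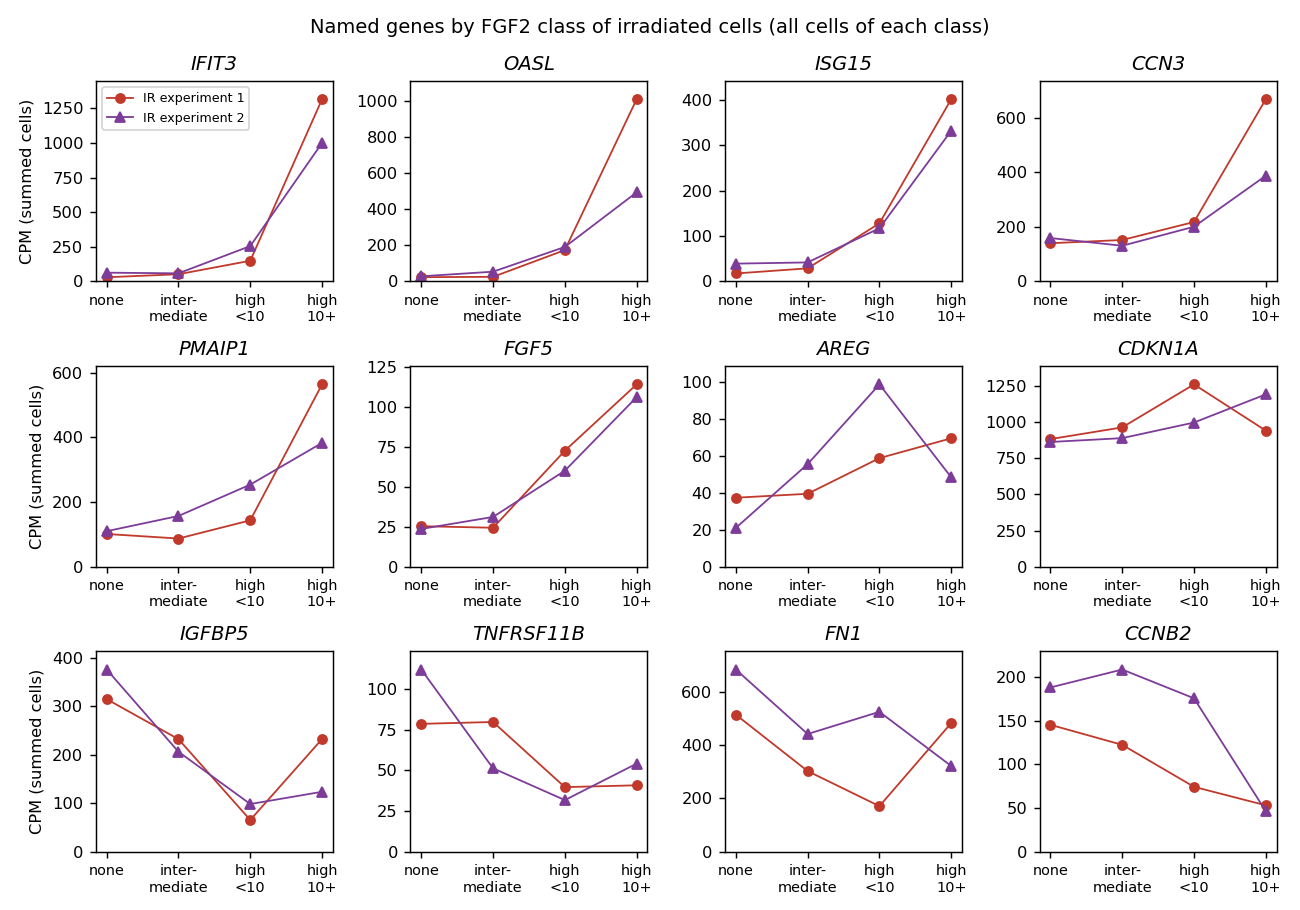
CPM of 12 named genes summed over all IR cells with no FGF2 count, with FGF2 outside the top 15% (intermediate), in the top 15% with under 10 FGF2 counts and with 10 or more, for experiment 1 (circles) and experiment 2 (triangles). The classes hold 122, 88, 27 and 10 cells in experiment 1 and 133, 78, 22 and 15 in experiment 2, and they are not matched on total counts. IFIT3, OASL and ISG15 are highest in the last class in both experiments, IGFBP5 is lowest in the top 15% with under 10 counts, and AREG has no common order.

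Single ligand genes outside the interferon list were also higher, while BMP4, described with the falls, was lower. FGF5 (chr4:80266639-80336680), a further FGF ligand that signals through FGFR1, had 87.4 and 82.1 CPM in FGF2-high cells against 38.9 and 24.4 CPM in FGF2-zero cells (1.44 ± 0.26 on the log2 scale, edgeR adjusted p = 8.04e-05). Of the 21 other FGF ligands listed, 4 were abundant enough to be tested, and FGF5 was the one that passed. It was detected in 20 of 37 and 23 of 35 FGF2-high cells and in 11 of 37 and 13 of 35 FGF2-zero cells. In experiment 1 a single cell held 38.7% of its FGF2-high counts. Without the highest cell of each class FGF5 stood at 54.1 and 66.5 CPM in FGF2-high cells and 27.6 and 18.2 CPM in FGF2-zero cells. AREG (amphiregulin, an EGF receptor ligand) had 63.7 and 81.1 CPM against 26.4 and 25.4 CPM (1.49 ± 0.27 on the log2 scale, edgeR adjusted p = 0.000139). It was 1 of 8 tested genes of the EGF family called. AREG was detected in 13 of 37 and 20 of 35 FGF2-high cells and in 11 of 37 and 14 of 35 FGF2-zero cells. In these classes 3 cells held 68.6% and 38.0% of its FGF2-high counts. Without the highest cell of each class AREG stood at 48.2 and 68.3 CPM against 20.3 and 21.4 CPM. VEGFC, a ligand of lymphatic VEGF receptors, had 51.2 and 47.2 CPM against 21.4 and 22.3 CPM, and lost its call without either experiment (edgeR adjusted p = 0.303 and 0.201) and with cell cycle matching (0.116). The chemokine CCL3 had 18.7 and 56.5 CPM against 1.26 and 5.30 CPM, passed the filter through FGF2-high cells only, and 1 cell held 60.0% and 54.6% of its FGF2-high counts. Its call was lost with cell cycle matching (edgeR adjusted p = 0.0737) and without IR experiment 2 (0.19). Without IR experiment 2 the adjusted p of FGF5 was 0.0807 and that of AREG 0.131.

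Few receptors and known responses to FGF passed the test. FGFR1, the receptor with the most transcript here, had 114 and 117 CPM in FGF2-high cells and 137 and 76.3 CPM in FGF2-zero cells, so the classes overlapped (0.16 ± 0.19 on the log2 scale, edgeR adjusted p = 0.898). FGFR4 had 32.5 and 27.7 CPM against 41.5 and 37.1 CPM (edgeR adjusted p = 0.792), and FGFR2 and FGFR3 were below the filter at 1.04 to 11.4 CPM. Of 14 tested receptors and co-receptors 1 was called. This was SDC4 (syndecan-4, a heparan sulfate proteoglycan that binds FGF2), with 216 and 319 CPM against 146 and 194 CPM (0.65 ± 0.15 on the log2 scale, edgeR adjusted p = 0.0039). The SDC4 call was lost without IR experiment 2 (edgeR adjusted p = 0.234) and with cell cycle matching (0.164). Among 19 feedback targets of FGF and ERK, which include the DUSP, SPRY and SPRED inhibitors, 0 were called by edgeR or DESeq2, with 1 higher and 2 lower at an unadjusted p under 0.05, and their median was -0.05 on the log2 scale (-0.18 and 0.02 in the experiments taken singly, and -0.20 without IR experiment 2). The 16 genes of FGF2 export and heparan sulfate synthesis gave 0 calls, also at an unadjusted p under 0.05.

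Among p53 targets, 2 of 42 rose and 0 fell, with 7 higher and 0 lower at an unadjusted p under 0.05. Of all 10275 genes tested, 483 were higher and 440 lower at that unadjusted p. The median log2 fold change of the p53 targets was 0.18. PMAIP1 (NOXA, a BH3-only protein that promotes apoptosis) had 276 and 324 CPM in FGF2-high cells against 137 and 104 CPM in FGF2-zero cells (1.33 ± 0.16 on the log2 scale, edgeR adjusted p = 2.0e-09). CDKN1A, which encodes the cell cycle inhibitor p21, had 1202 and 1139 CPM against 863 and 908 CPM (0.40 ± 0.08 on the log2 scale, edgeR adjusted p = 0.00133). GDF15, a secreted stress cytokine and p53 target, had 343 and 272 CPM against 93.0 and 237 CPM and was not called (edgeR adjusted p = 0.862). ATF3 and CEBPB, transcription factors of the stress response, rose by 0.99 ± 0.22 and 0.74 ± 0.18 on the log2 scale (edgeR adjusted p = 0.00463 and 0.0134). ATF3 lost its call without IR experiment 2 (edgeR adjusted p = 0.176), with cell cycle matching (0.0732) and without interferon-high cells (0.905), and CEBPB without either experiment (0.101 and 0.145) and without interferon-high cells (0.0521). CDKN1A lost its call without IR experiment 1, and when cells were also matched on cell cycle genes.

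Several higher genes encode matrix, cytoskeletal or chaperone proteins. CCN3, a matricellular protein, had 362 and 310 CPM in FGF2-high cells against 124 and 154 CPM in FGF2-zero cells (1.26 ± 0.15 on the log2 scale, edgeR adjusted p = 1.1e-09). CRYAB, a small heat shock protein, had 707 and 560 CPM against 426 and 320 CPM, and KRT17, an intermediate filament keratin, had 476 and 573 CPM against 362 and 303 CPM. LAMA1, a laminin chain, and CCN1, a target of YAP, rose by 1.03 ± 0.18 and 0.62 ± 0.13 on the log2 scale. Without IR experiment 2 KRT17 stood at 0.39 on the log2 scale and was not called (edgeR adjusted p = 0.259). LAMA1 and CCN1 lost their call without IR experiment 1 (edgeR adjusted p = 0.0974 and 0.173), and CCN1 also with cell cycle matching (0.0873). Within each experiment all of these were higher in FGF2-high cells, and for CCN1 the lowest FGF2-high value (320 CPM) lay close above the highest FGF2-zero value (291 CPM).

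The largest falls included genes of bone and growth factor signalling. TNFRSF11B (osteoprotegerin, a decoy receptor for RANKL, chr8:118923557-118951885) had 41.2 and 42.1 CPM in FGF2-high cells against 122 and 152 CPM in FGF2-zero cells (-1.72 ± 0.22 on the log2 scale, edgeR adjusted p = 1.6e-08). One FGF2-zero cell of experiment 2 held 58.6% of its counts. Without the highest cell of each class the levels were 35.5 and 29.1 CPM in FGF2-high cells and 78.5 and 63.4 CPM in FGF2-zero cells. The call was lost when cells were matched on cell cycle genes too (edgeR adjusted p = 0.486). IGFBP5, which binds insulin-like growth factors, had 119 and 119 CPM against 325 and 331 CPM (-1.46 ± 0.15 on the log2 scale, edgeR adjusted p = 2.3e-12). It was detected in similar shares of both classes, 23 of 37 and 26 of 35 FGF2-high cells and 24 of 37 and 27 of 35 FGF2-zero cells. BMP4, an inducer of bone formation, had 46.2 and 52.4 CPM against 96.7 and 135 CPM (-1.23 ± 0.22 on the log2 scale, edgeR adjusted p = 0.000103).

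Further falls were seen in adhesion and matrix genes. FN1 (fibronectin) had 271 and 436 CPM in FGF2-high cells against 460 and 659 CPM in FGF2-zero cells (-0.67 ± 0.11 on the log2 scale, edgeR adjusted p = 3.2e-05), lower in FGF2-high cells of each experiment, with 436 and 460 CPM as the closest values. L1CAM, a cell adhesion molecule, had 116 and 81.1 CPM against 258 and 141 CPM, and COL6A3, a collagen VI chain, had 46.2 and 58.5 CPM against 102 and 114 CPM. Of 31 tested collagen and matrix genes, 2 rose (CCN3 and LAMA1) and 4 fell (FN1, COL6A1, COL6A3 and THBS1), and the median log2 fold change was -0.10. PRDM1, TSPAN13, TPST1, TRIB2, RGS16, LINC00511 and SRGAP2 make up the rest of the 12 largest falls, with log2 fold changes between -1.45 and -1.05. Of these, PRDM1, TPST1 and TRIB2 lost their call without IR experiment 1, and TSPAN13, TRIB2, RGS16 and SRGAP2 without IR experiment 2. FN1 and IGFBP5 were also lower in FGF2-intermediate cells than in their matched FGF2-zero cells, by -0.72 ± 0.07 and -0.57 ± 0.09 on the log2 scale (edgeR adjusted p = 5.4e-20 and 1.4e-07).

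The secretory phenotype of senescence was mixed. Of 26 tested members, 4 rose, among them AREG, PLAUR and VEGFC, and 3 fell (IGFBP5, SERPINE2 and TNFRSF11B), with a median log2 fold change of 0.05. Cell cycle genes leaned to lower values in one phase. Over the 54 tested G2 and M phase genes the median was -0.32 on the log2 scale (-0.31 and -0.33 in the 2 experiments), 43 were lower in both experiments, 18 were lower at an unadjusted p under 0.05 and 1, CCNB2 (cyclin B2), was called, but not without IR experiment 2 (edgeR adjusted p = 0.0936). Of all 10275 genes tested, 2856 were lower in both experiments and 440 were lower at an unadjusted p under 0.05. The 42 S phase genes had a median of 0.36 in experiment 1 and -0.10 in experiment 2, so the experiments differed in sign, and 0.04 over both. MKI67, a marker of cycling cells, had 160 and 176 CPM in FGF2-high cells against 163 and 209 CPM in FGF2-zero cells. With cells matched on total counts and cell cycle genes, 35 genes were higher and 19 lower, and 13 interferon genes kept a call. This matching only kept pairs on the same side of the library median of the summed S, G2 and M phase share, so phase was not equalised.

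Because 30 FGF2-high cells were interferon-high, the comparison was repeated after the data had been seen with all interferon-high cells left out of both classes, which left 22 and 21 FGF2-high cells and as many matched FGF2-zero cells. Of 8952 genes 16 were then higher and 7 lower, and 17 of these 23 had been called with all cells. Among the genes still higher were FGF5 (1.52 on the log2 scale, edgeR adjusted p = 0.00662), AREG (1.59, adjusted p = 0.00448), PMAIP1 (1.05, adjusted p = 0.00448), CRYAB (0.79, adjusted p = 0.00448), CCN1 (0.75, adjusted p = 0.0168) and CDKN1A (0.53, adjusted p = 0.0199). IGFBP5, FN1, COL6A3, TPST1, L1CAM and the long non-coding RNA AL355916.1 were still lower. CCN3 (0.51), KRT17 (0.62), SDC4 (0.63), VEGFC (0.27), TNFRSF11B (-1.02) and BMP4 (-0.93) were no longer called. Interferon genes cannot be read in this comparison, since they defined the cells that were left out.

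**Figure D4:**
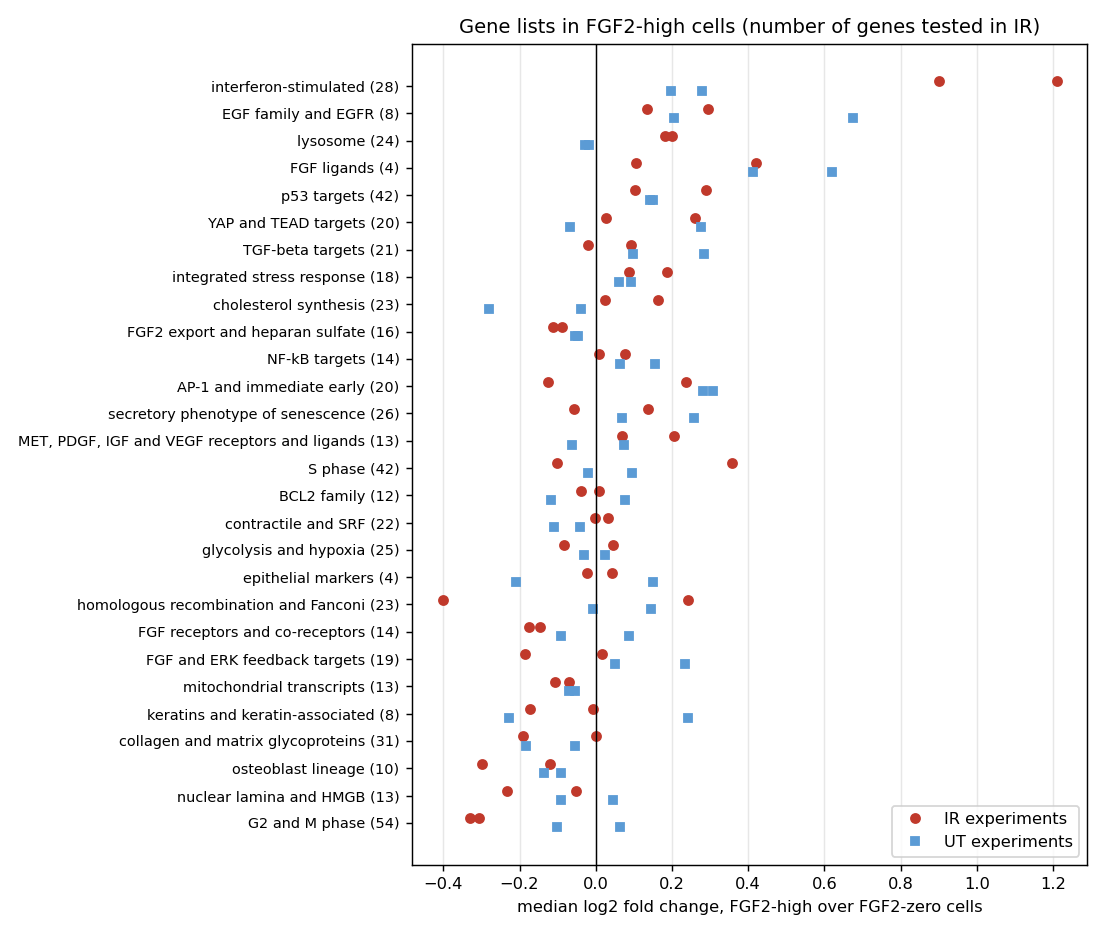
Median log2 fold change of the tested genes of each list in FGF2-high over matched FGF2-zero cells, for the 2 IR experiments (red circles) and the 2 UT experiments (blue squares). Numbers in parentheses are genes tested in IR. Interferon-stimulated genes lie at 0.90 and 1.21 in IR and at 0.28 and 0.20 in UT, and G2 and M phase genes at -0.31 and -0.33 in IR.

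The same comparison in untreated cells gave fewer calls. Of 10165 genes 18 were higher (0.177%) and 19 lower (0.187%) in FGF2-high UT cells, 53 and 55 cells per library, with 0 calls by DESeq2, where 12 were higher and 12 lower at an unadjusted p under 0.05. Of 22 interferon genes 5 rose, with a median log2 fold change of 0.24. IFIT3 had 2.26 ± 0.27 on the log2 scale in UT (edgeR adjusted p = 3.4e-13), IFIT2 had 3.00 (adjusted p = 3.8e-09) and ISG15 had 1.65 (adjusted p = 0.0346). IGFBP5 fell by 0.72 and L1CAM fell by 0.84 on the log2 scale. PMAIP1 (0.64, adjusted p = 0.111), FGF5 (1.17, adjusted p = 0.654) and AREG (0.94, adjusted p = 0.684) were not called in UT cells.

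The difference between the effects in IR and UT cells was tested as an interaction over all 4 libraries. Of 10864 genes the FGF2-high effect was higher in IR for 6 (0.0552%) and lower for 3 (0.0276%). These were IFIT3, IFIT1, OASL, HERC6, CRYAB and KRT17 on one side and TNFRSF11B, BMP4 and AL355916.1 on the other. CRYAB, for instance, rose by 0.77 ± 0.11 in IR and stood at -0.10 ± 0.08 in UT on the log2 scale, a difference of 0.87 ± 0.13 (edgeR adjusted p = 0.000205). FGF5, AREG and PMAIP1 were not among them. DESeq2 called 0 genes in this test, with 18 higher and 15 lower at an unadjusted p under 0.05, and without UT experiment 1 edgeR called 0 as well, with 262 higher and 267 lower. The top 15% of UT cells held a median of 2 FGF2 counts against 5 and 8.01 in IR, so irradiation and the amount of FGF2 in the selected cells cannot be told apart.

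**Figure D5:**
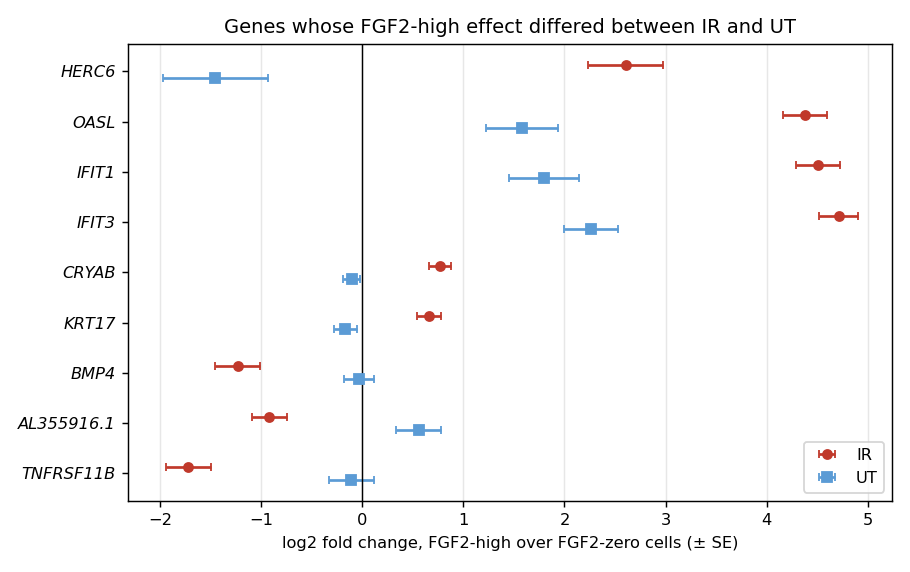
Log2 fold change (± SE) of FGF2-high over matched FGF2-zero cells in IR (red circles) and UT (blue squares) for the 9 genes whose effect differed between them. IFIT1, IFIT3 and OASL are higher in FGF2-high cells of both groups and by more in IR, while BMP4 and TNFRSF11B are near 0 in UT.

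The identity of the cells was checked with marker lists. FGF2-high cells expressed the mesenchymal and bone matrix genes COL1A1 (2301 and 1567 CPM in FGF2-high cells, 2384 and 1580 CPM in FGF2-zero cells), SPARC and VIM, whereas the osteoblast and osteocyte markers SP7, DLX5, PTH1R and SOST had no count in either class. Epithelial markers summed to 475 and 505 CPM in FGF2-high cells and 458 and 487 CPM in FGF2-zero cells. The keratins KRT8 (279 and 296 CPM in FGF2-high cells) and KRT18 (143 and 139 CPM) led this list. Immune markers summed to 9.70 and 36.3 CPM in FGF2-high cells and 9.71 and 43.6 CPM in FGF2-zero cells. Endothelial markers summed to 6.06 and 14.1 CPM against 7.28 and 9.34 CPM. Mitochondrial transcripts, a sign of RNA quality, had a median share per cell of 2.12% and 2.11% in FGF2-high cells and 2.65% and 2.004% in FGF2-zero cells, and MT-ND1 was lower in FGF2-high cells (-0.38 ± 0.08 on the log2 scale, edgeR adjusted p = 0.00218). The part of cell cycle position in these results was addressed only through the matching given above, which did not equalise phase.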

How the data were processed

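U-2 OS single cells from 2 IR and 2 UT libraries were analysed, with groups and experiment numbers from the sample titles. The authors mapped reads to GRCh38 with STARsolo, without intronic or multi-gene reads and without a UMI cut-off; the notes also name Seurat 5. The deposited values are expected counts: 99.9% of values lie on the correction for 4096 possible UMIs of 6 bases, so they were summed and rounded. The sources used here do not give the barcode filter, strand handling or UMI merging. Each matrix lists 36601 genes, and 92 ERCC spike-ins were left out of totals. Libraries held 5736339 and 6186428 gene counts in IR and 5867961 and 6810079 in UT, over 247, 248, 358 and 367 cells. All deposited barcodes were used, no doublet caller was run on sorted cells, and the IR libraries shared 173 barcode sequences.

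Cells were matched 1 to 1 on log10 total counts within 0.1. Sums per library and class were tested in edgeR 4.0.16 (under R 4.3.3, two-sided quasi-likelihood F test, robust, with TMM scaling and filterByExpr) with library as a block, because both classes come from 1 library; deviations of same-library sums from class means correlated at 0.417. CPM are TMM-scaled for tested genes, except list sums and levels given by FGF2 class or without the highest cell. Log2 fold changes of single experiments used a prior count of 2, on which those of genes near 0 depend. Fitted fold changes used the edgeR default instead. The study calls its experiments independent. The p-values reflect no more than how alike the within-library difference was in 2 libraries, with the spread estimated partly over all genes. They do not measure the spread between cells. The self-test used simulated counts. Members, lists and named genes were chosen with earlier results of these data known. Named were FGF2, NUDT6, FGFR1 to FGFR4, CDKN1A, GDF15, FN1, MKI67, 12 called genes per direction with the largest fold change and at least 20 CPM, 3 genes per list by p, and genes called between IR and UT. Gene positions are from GENCODE v44 by ID (36366 of 36601 matched). Promoters were matched by symbol. Intervals are exact binomial (95%) and cover counting error only. A few genes are not reported here.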

Additional observations from a re-analysis of the deposited data

Results flagged for a closer look

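For 9 genes the FGF2-high effect differed between IR and UT cells by the interaction test. The difference, in log2 units, was 4.06 for HERC6, 2.71 for IFIT1, 2.80 for OASL, 2.46 for IFIT3, 0.88 for CRYAB and 0.84 for KRT17 (edgeR adjusted p = 0.000205, 0.00219, 0.03, 0.00219, 0.000205 and 0.013). It was -1.61 for TNFRSF11B, -1.47 for AL355916.1 and -1.20 for BMP4 (edgeR adjusted p = 0.013, 0.00963 and 0.03). HERC6 had 57.0 and 52.9 CPM in FGF2-high and 14.6 and 4.10 CPM in FGF2-zero IR cells, and 10.0 and 4.02 CPM in FGF2-high and 23.9 and 14.01 CPM in FGF2-zero UT cells. KRT17 had 462 and 557 CPM in FGF2-high and 350 and 293 CPM in FGF2-zero IR cells, and 333 and 234 CPM in FGF2-high and 358 and 274 CPM in FGF2-zero UT cells. AL355916.1, a long non-coding RNA (chr14:61570405-61658696), had 81.2 and 110 CPM in FGF2-high and 197 and 166 CPM in FGF2-zero IR cells, against 68.8 and 76.3 CPM in FGF2-high and 42.7 and 55.0 CPM in FGF2-zero UT cells. Every one of the 9 lost its call with DESeq2, without the library block and without UT experiment 1.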

How the results depend on the processing

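Among the 42 named genes called in IR, the direction of change was kept under every alternative in which a value could be had, except DDX58, which stood at -0.13 once interferon-high cells were left out. These genes were chosen as called and most alternatives reuse the same cells, so a kept direction is little support. All 42 kept their call with 1 to 2 matching, 28 with cell cycle matching, 16 for the top 25%, 12 with DESeq2 and 9 without the replicate block. Genes higher and lower in FGF2-high IR cells (69 and 43) numbered 10 and 2 with DESeq2, 9 and 2 without the library as replicate block, 116 and 80 with 1 to 2 matching, 35 and 19 with cell cycle matching, 187 and 235 for the top 10%, 15 and 6 for the top 25%, 110 and 82 against all cells outside the top 15%, 111 and 78 with no matching, and 50 to 89 and 45 to 56 without 1 IR replicate. In alternatives added after the data were seen they numbered 16 and 7 without interferon-high cells and 10 and 2 for members with under 10 FGF2 counts, with fewer cells in each.

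In UT cells (18 and 19) the counts were 0 and 0 with DESeq2, 0 and 0 without the replicate block (96 and 92 at an unadjusted p under 0.05), 7 and 7 with IR and UT in 1 fit, 11 and 9 with cell cycle matching, 3 and 0 for the top 10%, 6 higher for the top 25%, 12 lower with at least 3 FGF2 counts, 2 and 0 against all cells outside the top 15%, 29 and 43 with no matching, 5 higher when thinned to 8000 UMIs, and 1 to 13 and 0 to 4 without 1 UT replicate. For the difference between IR and UT (6 and 3) they were 0 and 0 with DESeq2 and without the replicate block (124 and 79 unadjusted), 9 lower with no filter, 10 and 6 with 1 to 2 matching, 1 lower with a caliper of 0.05, 6 lower with cell cycle matching, 23 and 54 for the top 10%, 1 and 0 for the top 25%, 3 and 5 with at least 3 FGF2 counts, 5 lower with no matching, 12 lower when thinned, and 0 to 20 and 0 to 17 without 1 replicate.

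For FGF2-intermediate cells (10 and 24) they were 0 and 1 with DESeq2, 0 and 0 without the replicate block (59 and 72 unadjusted), 2 and 2 with IR and UT in 1 fit, 8 lower with a caliper of 0.05, 7 lower with cell cycle matching, 29 and 58 for the top 10%, 4 and 9 for the top 25%, 61 and 78 with no matching, 2 higher when thinned, and 4 to 5 and 1 to 13 without 1 IR replicate. The settings with 1 to 2 matching and at least 3 FGF2 counts left these cells as they were and changed no count. The setting with all cells outside the top 15% was not run for them. Without 1 replicate a class has 1 library, which is assumed to vary like the others. The cause of these changes was not tested. IFIT3, OASL and ISG15 kept their call in IR with DESeq2, without the replicate block and without either IR library.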

Other observations

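FGF2-high untreated cells had changes of their own, in genes picked after their values had been seen. HBEGF, an EGF receptor ligand, had 69.9 and 74.6 CPM in FGF2-high UT cells against 17.3 and 50.9 CPM in FGF2-zero UT cells (1.04 ± 0.24 on the log2 scale, edgeR adjusted p = 0.00618), and DUSP2, a phosphatase that acts on ERK, had 33.1 and 36.3 CPM against 13.6 and 10.8 CPM (1.52 ± 0.37, edgeR adjusted p = 0.0179). SOX5, a transcription factor of cartilage development, had 9.81 and 9.82 CPM against 32.1 and 36.2 CPM (-1.79 ± 0.39, edgeR adjusted p = 0.00302). DESeq2 called none of these.

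Single genes also differed between FGF2-intermediate and FGF2-zero IR cells, again picked after their values had been seen, while 1 of 43 S phase genes and 0 of 54 G2 and M phase genes were called there (edgeR, with 4 G2 and M phase genes higher and 2 lower at an unadjusted p under 0.05). CXCL14, a chemokine, had 25.8 and 51.5 CPM in FGF2-intermediate cells against 93.4 and 73.2 CPM in FGF2-zero cells (-1.13 ± 0.17 on the log2 scale, edgeR adjusted p = 1.4e-07). ATAD2, an S phase gene that binds acetylated histones, had 149 and 155 CPM against 94.0 and 107 CPM (0.60 ± 0.12, edgeR adjusted p = 0.000492), and MYBL2, a transcription factor of proliferating cells, had 138.3 and 181 CPM against 94.97 and 126 CPM (edgeR adjusted p = 0.00302). Of 13 mitochondrial transcripts 6 were called lower, with a median log2 fold change of -0.19.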
